A study of Mus musculus with 4 samples.

Results

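The 10 genes described here serve the recycling of haem and iron by macrophages. They were chosen by symbol: Spic, Nfe2l2, Cd163, Tfrc, Hmox1, Blvrb, Slc11a1, Fth1, Slc40a1 and Trf. Each of the 10 had a line in every deposited gene table, out of 17008 genes with a uniquely mapped read in any library. The RNA came from macrophages sorted from mouse bone marrow and spleen, and the question of the study is how macrophages in leukaemia compare with those at homeostasis. There were 4 libraries, 1 per group. The T-ALL bone marrow and T-ALL spleen libraries came from C57BL/6J mice 6 to 8 weeks old with T cell acute lymphoblastic leukaemia (T-ALL). They had received GFP+ leukaemia cells from other leukaemic mice, without irradiation, and were sampled on day 21. Recipients of this leukaemia lived 35 to 40 days, and the submitters call these cells leukaemia-associated macrophages. The normal bone marrow and normal spleen libraries came from C57BL/6J mice of the same age at day 0. What drives the leukaemia, how the cells were gated, and how many mice of which sex made up a library is not given by the labels used here. With 1 library per group the differences below lack any replicate check, and p-values are not reported.

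Macrophages of the splenic red pulp and of the erythroblastic islands of the marrow take up old or damaged red cells and their haemoglobin. Haem oxygenase opens the haem ring, which frees iron and yields biliverdin, and biliverdin reductase turns biliverdin into bilirubin. The iron is stored in ferritin or leaves through ferroportin, the only known iron exporter of mammals, to be carried in plasma by transferrin to the marrow, where cells that make haemoglobin take it up through the transferrin receptor. Haem itself turns the programme on in mouse macrophages, by lifting the repressor Bach1 from Spic and Hmox1.

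Levels are given in CPM, the reads of a gene per scaled library total, and levels of different genes are compared only in the deposited RPKM, which also divides by gene length. Scaled totals were 9318043 reads for T-ALL bone marrow, 9856658 for normal bone marrow, 9236820 for T-ALL spleen and 8939756 for normal spleen, so 1 read was worth 0.101 to 0.112 CPM. Genes are counted as higher or lower past a size limit, a 2-fold difference on log2(CPM + 1) with the larger level at 10 CPM or above, and smaller differences are given as folds but not counted. The values in parentheses after a fold are its exact 95% counting interval, which covers counting error only. Sex-linked transcripts moved with condition. The Y-linked Ddx3y had 874 reads in T-ALL bone marrow against 0 in normal bone marrow and 532 in T-ALL spleen against 0 in normal spleen, where 0 reads allow up to 3. Xist, the RNA that silences one X chromosome in female cells, was at 0.644 CPM in T-ALL bone marrow against 861 CPM in normal bone marrow, and at 416 CPM in T-ALL spleen against 849 CPM in normal spleen. Sex and condition cannot be told apart, and T-ALL spleen, with both kinds of transcript, also differed from T-ALL bone marrow in them.

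Expression of several of these genes is also set after transcription. Iron regulatory proteins bind a short hairpin, the iron-responsive element, when iron is scarce. In a 5′ UTR the bound hairpin blocks translation, and in the 3′ UTR of the transferrin receptor it protects the mRNA from decay. A search of the GENCODE M21 transcripts (GRCm38) for a bulged C, 5 paired bases and the loop CAGTGN without a final G found the element in 3 of the 10 genes, against 222 of 21901 coding genes (1.01%). The hairpins are shown because the genes differ in which end of the mRNA carries them. Fth1 has its element in the 5′ UTR at chr19:9982731-9982760 on the plus strand, and Slc40a1 in the 5′ UTR at chr1:45925465-45925494 on the minus strand. Tfrc has 4 elements in its 3′ UTR, all on the plus strand, at chr16:32631218-32631247, chr16:32631597-32631626, chr16:32631662-32631691 and chr16:32631709-32631738. Capitals mark the bulged C and the loop.
Fth1: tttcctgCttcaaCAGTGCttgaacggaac
Slc40a1: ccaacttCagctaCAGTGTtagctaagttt
Tfrc element 1: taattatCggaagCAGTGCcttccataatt
Tfrc element 2: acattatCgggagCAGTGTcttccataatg
Tfrc element 3: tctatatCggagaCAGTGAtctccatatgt
Tfrc element 4: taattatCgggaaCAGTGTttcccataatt
A match to the pattern is a description, and binding by the regulatory proteins was not measured.

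Across the 4 libraries, 8 of the 10 genes (80%) shared one order, with the highest level in normal spleen and the lowest in normal bone marrow. Of the 10312 genes at 10 CPM or more in any library, 2026 (19.6%) had that order, as did 12 of 15 other genes of red pulp and island macrophages and 10 of 16 genes of most mouse macrophages. For these 8 genes the highest level was between 2.90-fold and 53.6-fold above the lowest, at the extremes Fth1 and Spic. The exceptions were Tfrc, highest in T-ALL spleen and lowest in normal spleen, and Nfe2l2, which spanned only 1.64-fold. The summed level of the 10 genes was 3438 CPM in T-ALL bone marrow against 1259 CPM in normal bone marrow. In spleen it was 3767 CPM in T-ALL against 7504 CPM in normal spleen. The plot of levels by library shows the T-ALL libraries of both organs between the normal ones for Spic, Cd163, Hmox1, Blvrb, Slc11a1, Fth1, Slc40a1 and Trf.

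**Figure D1:**
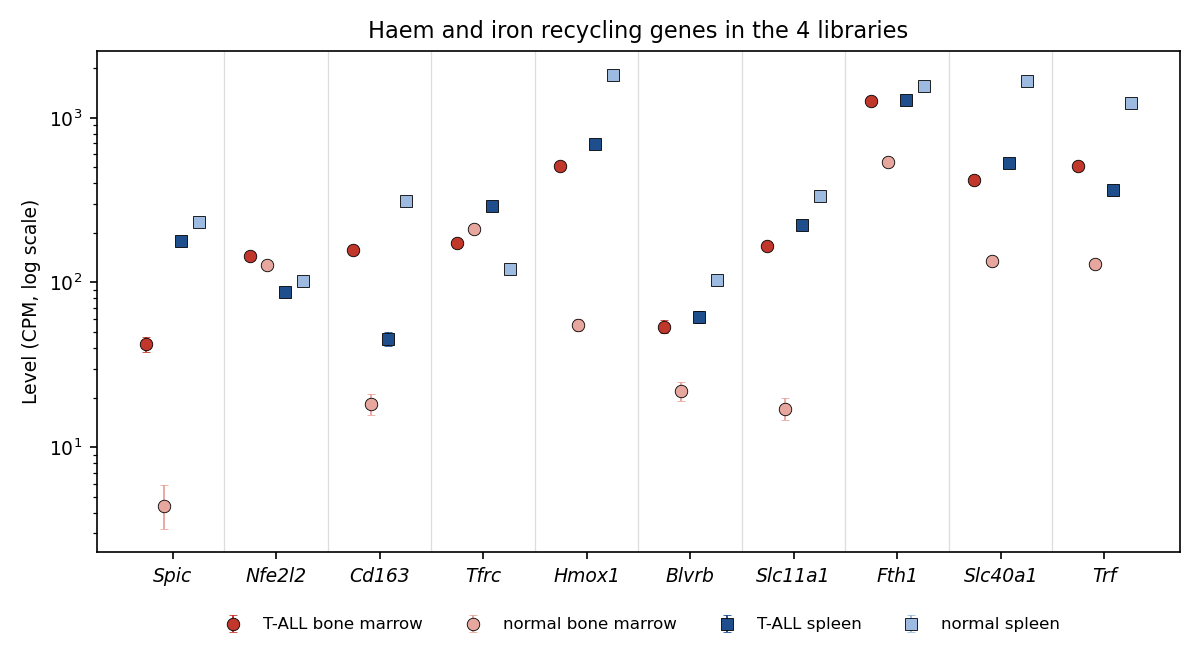
Level of each of the 10 genes in CPM on a log axis, 1 point per library (circles, bone marrow; squares, spleen; dark, T-ALL; pale, normal), with exact 95% counting intervals, most of them smaller than the point. For 8 of the 10 genes the normal spleen library is highest and the normal bone marrow library lowest, while Tfrc is lowest in normal spleen and Nfe2l2 varies by 1.64-fold.

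In bone marrow, the T-ALL library was higher for 8 of the 10 genes and lower for 0, where 8.01% of the 9716 genes measured were higher and 1.03% lower. The median log2 fold of the 10 genes was 1.80, beside -0.04 over all genes. In spleen, 1 of the 10 was higher and 4 were lower in the T-ALL library, where 10.3% of 9774 genes were higher and 11.0% lower. The median log2 fold was -0.66, beside -0.08 over all genes. In bulk libraries, fewer cells of a type and less RNA per cell cannot be told apart. Macrophage genes moved with these counts: 13 of 16 genes of most mouse macrophages were higher and 0 lower in T-ALL bone marrow (median log2 fold 2.42), and 0 were higher and 9 lower in T-ALL spleen (median -1.02). Set against those medians, 0 members remained higher in T-ALL bone marrow and 4 were lower. Of all 9716 genes there, 26 were then higher and 9223 lower. In T-ALL spleen Tfrc remained higher and Cd163 alone remained lower, where 4593 of 9774 genes were higher and 123 lower. This setting puts the median log2 fold of all genes at -2.45 in bone marrow and 0.94 in spleen. The folds below are relative to library totals, and the part that macrophage content had in them was not tested.

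**Figure D2:**
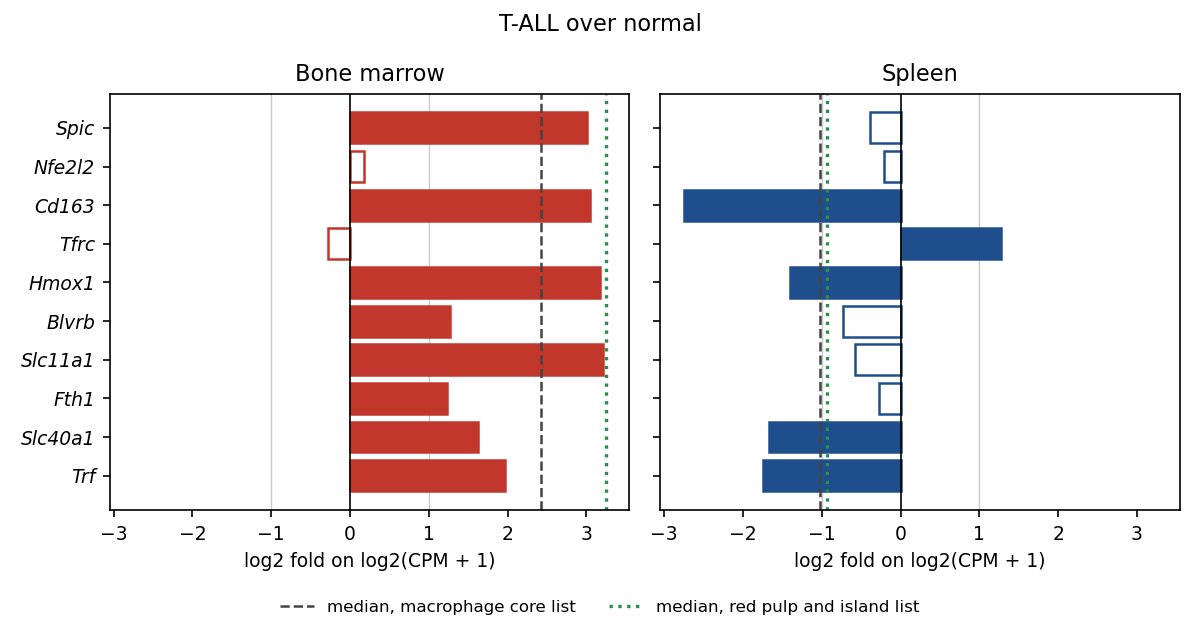
Log2 fold of T-ALL over normal on log2(CPM + 1) for each gene in bone marrow and spleen, 1 library per group; filled bars passed 2-fold, dashed and dotted lines are the medians of the macrophage core and of the red pulp and island lists. In bone marrow 8 bars are filled to the right, of which those of Blvrb, Fth1, Slc40a1 and Trf end short of the core median of 2.42, and in spleen 4 are filled to the left and Tfrc to the right.

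Of the regulators, Spic was the gene with the widest span and Nfe2l2 the one with the narrowest. Spic encodes a transcription factor of the ETS family without which mice lack red pulp macrophages. Its level was 42.1 CPM in T-ALL bone marrow against 4.36 CPM in normal bone marrow, with 179 CPM in T-ALL spleen against 234 CPM in normal spleen. Both spleen libraries stood above both marrow libraries. T-ALL bone marrow was 9.64-fold higher than normal bone marrow (7.03 to 13.5), with only 43 reads in normal bone marrow, a call that a minimum of 50 CPM removes because neither marrow library reaches it. T-ALL spleen was 1.31-fold below normal spleen (1.23 to 1.40), which is under the size limit that Cd163, Hmox1, Slc40a1 and Trf passed there.

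Nfe2l2 encodes NRF2, the transcription factor that turns on Hmox1 and other genes of the oxidative stress response, and its activity is set mainly by protein turnover. It stood at 144 CPM in T-ALL bone marrow against 128 CPM in normal bone marrow, and at 88.0 CPM in T-ALL spleen against 102 CPM in normal spleen. No comparison passed 2-fold: it was 1.13-fold higher in T-ALL bone marrow (1.05 to 1.22) and 1.16-fold lower in T-ALL spleen (1.05 to 1.27). The ratio of Hmox1 to Nfe2l2 per length was 5.35 in T-ALL bone marrow against 0.658 in normal bone marrow, and 11.9 in T-ALL spleen against 27.2 in normal spleen, a range that is mostly that of Hmox1. Of 16 measured targets and partners of NRF2, 12 reached 10 CPM in bone marrow and 0 were higher or lower in the T-ALL library, the most abundant of them per length being the thioredoxin gene Txn1 at 219 RPKM in T-ALL and 241 RPKM in normal bone marrow. Of all genes measured, 8.01% were higher and 1.03% lower in T-ALL bone marrow, and 10.3% higher and 11.0% lower in T-ALL spleen. In spleen 3 of 12 genes of the NRF2 list were higher and 0 lower in the T-ALL library. These were Maff, a small Maf partner of NRF2 (2.97-fold, 2.31 to 3.86), the thioredoxin reductase gene Txnrd1 (2.64-fold, 2.45 to 2.85) and Txn1 (2.28-fold, 2.12 to 2.44). The peroxiredoxin gene Prdx1, at 274 RPKM in T-ALL spleen and 172 RPKM in normal spleen, stayed under 2-fold.

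Both receptors of the set stood at the ends of the 10 genes in T-ALL spleen, Cd163 with the lowest fold and Tfrc with the highest. Cd163 encodes the macrophage scavenger receptor for haemoglobin bound to haptoglobin. It was at 157 CPM in T-ALL bone marrow against 18.2 CPM in normal bone marrow, and at 45.3 CPM in T-ALL spleen against 311 CPM in normal spleen. T-ALL bone marrow was 8.65-fold higher (7.40 to 10.2) and T-ALL spleen 6.86-fold lower (6.19 to 7.62), the widest fall of the 10 genes, with only 0.276% of all genes measured in spleen having a lower fold. Cd163 was thus the one gene of the 8 with the shared order whose T-ALL levels were reversed between organs by more than 2-fold, with T-ALL spleen 3.47-fold below T-ALL bone marrow (3.11 to 3.88). Per length, Cd163 and Spic were about even in bone marrow, with ratios of 1.05 (0.940 to 1.18) in T-ALL and 1.17 (0.837 to 1.68) in normal bone marrow. In spleen the ratio was 0.0713 (0.0639 to 0.0794) in T-ALL and 0.374 (0.353 to 0.396) in normal mice.

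Tfrc encodes the transferrin receptor, through which dividing cells and red cell precursors import iron. It was at 175 CPM in T-ALL bone marrow against 211 CPM in normal bone marrow, and at 291 CPM in T-ALL spleen against 120 CPM in normal spleen. Tfrc was the only one of the 10 genes higher in T-ALL spleen, by 2.43-fold (2.26 to 2.61), and it was 1.21-fold lower in T-ALL bone marrow (1.13 to 1.29). Cell cycle genes, like Tfrc, were lowest in normal spleen. All 24 cell cycle genes were higher in T-ALL spleen (median log2 fold 2.002). Their summed level was 5564 CPM in T-ALL spleen against 1416 CPM in normal spleen, and 4652 CPM in T-ALL bone marrow against 7385 CPM in normal bone marrow. Of 18 T cell genes, T-ALL spleen had 13 higher and 1 lower, with sums of 4227 CPM in T-ALL and 1533 CPM in normal spleen. In T-ALL bone marrow, where Tfrc was not higher, 13 of 15 were higher and 0 lower, with sums of 940 CPM in T-ALL and 308 CPM in normal bone marrow. The 20 erythroid genes summed to 243 CPM in T-ALL spleen and 248 CPM in normal spleen, and to 380 CPM in T-ALL bone marrow against 199 CPM in normal bone marrow, and no marker of these 3 lists was at 0 in any library. The part of dividing cells, T cells or red cell precursors in the Tfrc level was not tested. The second transferrin receptor gene, Tfr2, was scarce in spleen, at 4.98 CPM in T-ALL and 6.04 CPM in normal mice. Tfrc exceeded it per length 34.7-fold in T-ALL spleen and 11.8-fold in normal spleen, against 2.47-fold in T-ALL and 2.07-fold in normal bone marrow.

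The haem-degrading step was carried by one highly variable and one steadier gene. Hmox1 encodes the inducible haem oxygenase. It was at 510 CPM in T-ALL bone marrow against 55.5 CPM in normal bone marrow, and at 693 CPM in T-ALL spleen against 1831 CPM in normal spleen. In normal spleen Hmox1 ranked 27 among all genes by reads, and in normal bone marrow 4329. It was 9.19-fold higher in T-ALL bone marrow (8.41 to 10.1) and 2.64-fold lower in T-ALL spleen (2.57 to 2.72). Hmox2, the constitutive haem oxygenase, stayed between 53.9 and 66.4 CPM in all 4 libraries, so that Hmox1 exceeded Hmox2 per length 6.88-fold in T-ALL bone marrow and was below it in normal bone marrow, at a ratio of 0.803 (0.711 to 0.907). In spleen the ratio was 9.23 in T-ALL and 21.5 in normal mice.

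Blvrb, a biliverdin reductase that also reduces flavins, was at 53.9 CPM in T-ALL bone marrow against 21.8 CPM in normal bone marrow, and at 61.5 CPM in T-ALL spleen against 103 CPM in normal spleen. The T-ALL libraries of both organs lay close together, with normal spleen above and normal bone marrow below them. Blvrb was 2.47-fold higher in T-ALL bone marrow (2.10 to 2.91), and in T-ALL spleen it was 1.67-fold lower (1.51 to 1.86), under the 2-fold limit. Its partner Blvra, the main biliverdin reductase of adults, was 1.75-fold higher in T-ALL bone marrow (1.48 to 2.08) and 1.16-fold higher in T-ALL spleen (1.03 to 1.29). Hmox1 stood above Blvrb per length by 5.01-fold in T-ALL bone marrow against 1.35-fold in normal bone marrow, and by 5.97-fold in T-ALL spleen against 9.42-fold in normal spleen.

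Among the genes that move and store iron inside the cell, Slc11a1 followed Hmox1 in bone marrow and Fth1 followed Blvrb. Slc11a1 (NRAMP1) is a metal transporter of the phagosome membrane of macrophages and neutrophils. It was at 167 CPM in T-ALL bone marrow against 17.1 CPM in normal bone marrow, and at 224 CPM in T-ALL spleen against 336 CPM in normal spleen. The fold in bone marrow, 9.74 (8.30 to 11.5), was the largest of the 10 genes, with an interval that overlaps those of Spic, Hmox1 and Cd163, and in T-ALL spleen the gene was 1.497-fold below normal (1.42 to 1.58). Slc11a2 encodes DMT1, a related transporter that most cells have. Per length the ratio of Slc11a1 to Slc11a2 was 8.05 in T-ALL bone marrow against 0.946 (0.782 to 1.14) in normal bone marrow, and 6.50 in T-ALL spleen against 15.7 in normal spleen.

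Fth1 encodes the heavy chain of ferritin, which oxidises iron for storage. Its level was 1262 CPM in T-ALL bone marrow against 538 CPM in normal bone marrow, with 1291 CPM in T-ALL spleen against 1559 CPM in normal spleen. Per length it was the most abundant of the 10 genes except in normal spleen, where Hmox1 reached 1116 RPKM and Fth1 1027 RPKM. It was 2.35-fold higher in T-ALL bone marrow (2.27 to 2.42) and 1.21-fold lower in T-ALL spleen (1.18 to 1.24). Unique reads covered only 58.8% to 62.0% of its listed length, against 79.5% or more for the other 9 genes. Ferritin has many processed pseudogenes, so the level of Fth1 is uncertain. The light chain gene Ftl1 kept a ratio to Fth1 per length of 2.84 in T-ALL and 2.66 in normal bone marrow, and of 2.46 in T-ALL and 2.96 in normal spleen, while the level of both genes differed between libraries by up to 3.22-fold.

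Slc40a1 and Trf, which send iron out of the cell and carry it in plasma, were called in the same direction within each organ. Slc40a1 encodes ferroportin. It was at 420 CPM in T-ALL bone marrow against 135 CPM in normal bone marrow, and at 529 CPM in T-ALL spleen against 1682 CPM in normal spleen. Trf encodes transferrin, which is made mainly by the liver and also by macrophages. It was at 508 CPM in T-ALL bone marrow against 130 CPM in normal bone marrow, and at 365 CPM in T-ALL spleen against 1227 CPM in normal spleen. Both genes were thus highest in normal spleen by a wide margin, with the other 3 libraries at 529 CPM or less. Slc40a1 was 3.11-fold higher in T-ALL bone marrow (2.92 to 3.31) and 3.18-fold lower in T-ALL spleen (3.08 to 3.28), and Trf was 3.92-fold higher (3.68 to 4.17) and 3.36-fold lower (3.24 to 3.50). The ratio of Slc40a1 to Trf per length was 0.570 (0.546 to 0.595) in T-ALL and 0.718 (0.664 to 0.776) in normal bone marrow, and 1.00 (0.958 to 1.05) in T-ALL and 0.946 (0.923 to 0.970) in normal spleen.

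The ratio of export to import mRNA was higher in T-ALL bone marrow and lower in T-ALL spleen than in the normal library of the same organ. The ratio of Slc40a1 to Tfrc per length was 3.50 (3.30 to 3.71) in T-ALL bone marrow against 0.930 (0.868 to 0.997) in normal bone marrow, and 2.65 (2.53 to 2.78) in T-ALL spleen against 20.4 (19.2 to 21.7) in normal spleen. Normal spleen was thus the library with a strong excess of exporter over importer mRNA, and normal bone marrow the one without any. The ratio of Trf to Tfrc was 6.15 in T-ALL against 1.30 in normal bone marrow, and 2.65 in T-ALL against 21.6 in normal spleen. These ratios do not depend on library scaling, and the part of other cells in them was not tested. Of the carriers of the hairpins printed above, Slc40a1 and Fth1, with a 5′ element, were highest in normal spleen and lowest in normal bone marrow. Spic, Cd163, Hmox1, Blvrb, Slc11a1 and Trf, in which the search found no element, had that same order. Tfrc, with 3′ elements, was highest in T-ALL spleen and lowest in normal spleen. The part of the hairpins in these levels was not tested.

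**Figure D3:**
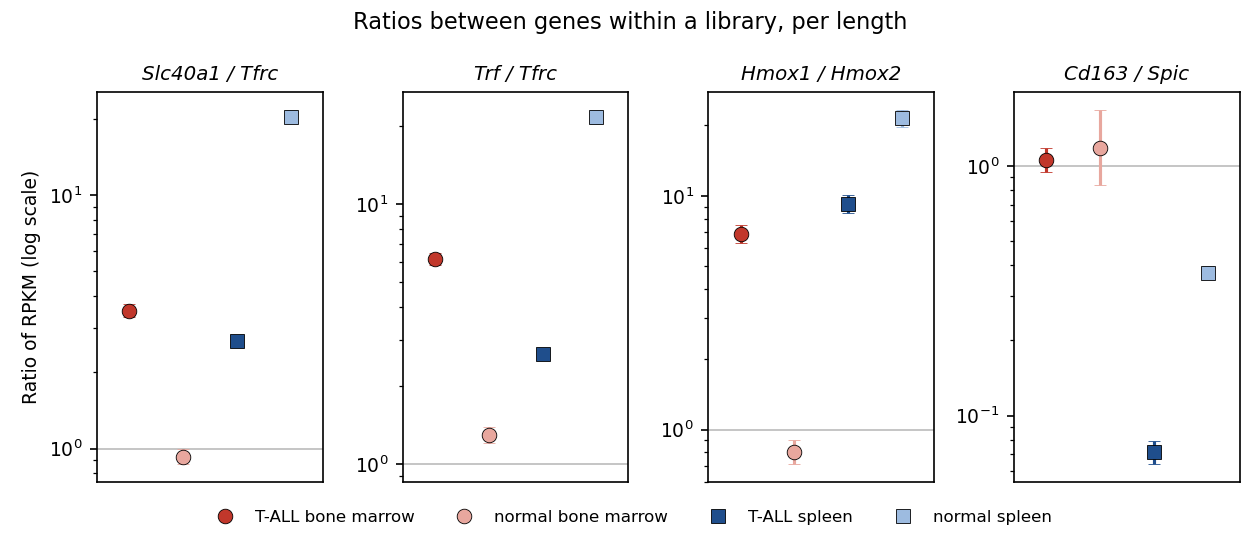
Ratio of RPKM between 2 genes within each library, on log axes that differ between panels, with exact 95% counting intervals and a grey line at a ratio of 1. Slc40a1 over Tfrc and Trf over Tfrc are above 20 in normal spleen and between 0.930 and 6.15 in the other 3 libraries, Hmox1 over Hmox2 is below 1 only in normal bone marrow, and Cd163 over Spic is near 1 in bone marrow and below it in spleen.

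Between organs, spleen was higher than bone marrow in normal mice for 8 of the 10 genes and lower for 0, where 16.1% of 10072 genes were higher and 14.0% lower. The median log2 fold was 3.43 beside -0.04 over all genes, 2.57 for the macrophage core genes and 4.52 for the other red pulp and island genes. Spic had the largest fold, 53.6 (39.7 to 74.3), followed by Hmox1 at 33.0 (30.3 to 36.0), Slc11a1 at 19.6 (16.8 to 23.0), Cd163 at 17.1 (14.7 to 20.0), Slc40a1 at 12.5 (11.8 to 13.2) and Trf at 9.45 (8.92 to 10.02). Blvrb was 4.72-fold higher in normal spleen (4.06 to 5.50) and Fth1 2.90-fold (2.81 to 2.99). Neighbours in that order whose intervals overlap are Slc11a1 and Cd163. Set against the macrophage core median, 5 of the 10 genes remained higher in normal spleen and 3 were lower. Of all 10072 genes, 196 were then higher and 9053 lower. The log2 folds of the 3 were -3.38 for Tfrc, -2.89 for Nfe2l2 and -1.04 for Fth1, while Blvrb turned to -0.38, under the size limit.

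In T-ALL mice 8 of the 10 genes were under 2-fold between organs. Spleen was higher than bone marrow for 1 of the 10 genes and lower for 1, where 5.44% of 9852 genes were higher and 11.0% lower, and the median log2 fold was 0.26, beside 0.01. The higher gene was Spic, at 4.25-fold (3.81 to 4.76), and the lower one Cd163. Hmox1 was 1.36-fold higher in T-ALL spleen (1.31 to 1.41), Slc11a1 1.34-fold (1.26 to 1.44) and Slc40a1 1.26-fold (1.21 to 1.32), all under the size limit. Fth1 was 1.02-fold higher (0.998 to 1.05), an interval that includes 1. Blvrb was 1.14-fold higher (1.01 to 1.29) and Tfrc 1.67-fold higher (1.57 to 1.77). Nfe2l2 was 1.64-fold lower in T-ALL spleen (1.4998 to 1.79) and Trf 1.39-fold lower (1.33 to 1.46). The organ comparisons use the same 4 libraries as the T-ALL comparisons, so they restate the same values and are no further evidence.

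**Figure D4:**
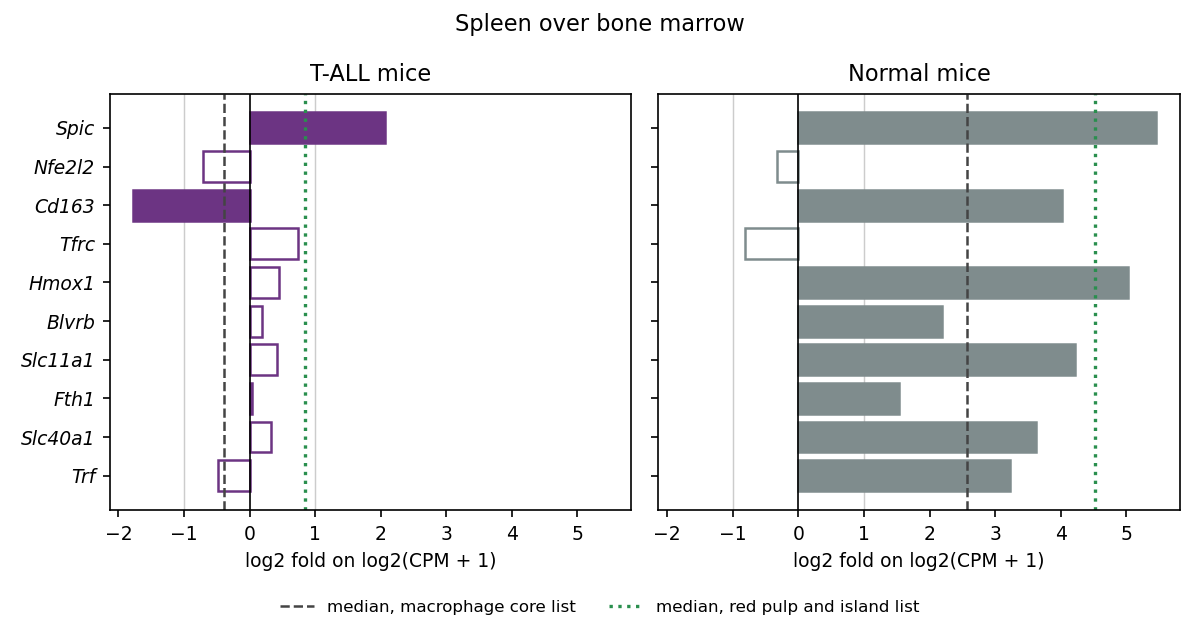
Log2 fold of spleen over bone marrow on log2(CPM + 1) for each gene in T-ALL and in normal mice, 1 library per group; filled bars passed 2-fold, and lines are the medians of the macrophage core (dashed) and red pulp and island lists (dotted). In normal mice 8 bars pass 2-fold to the right, of which Blvrb and Fth1 end short of the core median, and in T-ALL mice only Spic (right) and Cd163 (left) pass.

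Genes of macrophages and of other cells varied over the same libraries. The 16 macrophage core genes summed to 12185 CPM in T-ALL against 5480 CPM in normal bone marrow, and to 5070 CPM in T-ALL against 9497 CPM in normal spleen. Among them the lysozyme gene Lyz2, which neutrophils also express, was at 5494 CPM in T-ALL against 2572 CPM in normal bone marrow and at 241 CPM in T-ALL against 946 CPM in normal spleen. None of the 16 was at 0 in any library. Emr1 was at 303 CPM in T-ALL against 39.5 CPM in normal bone marrow and at 429 CPM in T-ALL against 698 CPM in normal spleen, and neutrophil precursor genes exceeded the core genes in both marrow libraries. The 16 other genes of red pulp and island macrophages, which include the complement gene C1qa and Vcam1, had sums of 3352 CPM in T-ALL against 402 CPM in normal bone marrow and of 5507 CPM in T-ALL against 8919 CPM in normal spleen. Of the 15 that reached 10 CPM, 15 were higher and 0 lower in T-ALL bone marrow (median log2 fold 3.24), and 1 was higher and 7 lower in T-ALL spleen (median -0.94). Spic, Cd163, Hmox1 and Slc11a1, with log2 folds of 3.01 to 3.21 in bone marrow, stood nearer to this median than Blvrb, Fth1, Slc40a1 and Trf, at 1.23 to 1.96. Neutrophil precursor genes such as Ngp took 2.20% of reads in T-ALL against 4.08% in normal bone marrow and under 0.05% in spleen, and no gene of that list was at 0. Their part in the levels of the 10 genes was not tested.

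**Figure D5:**
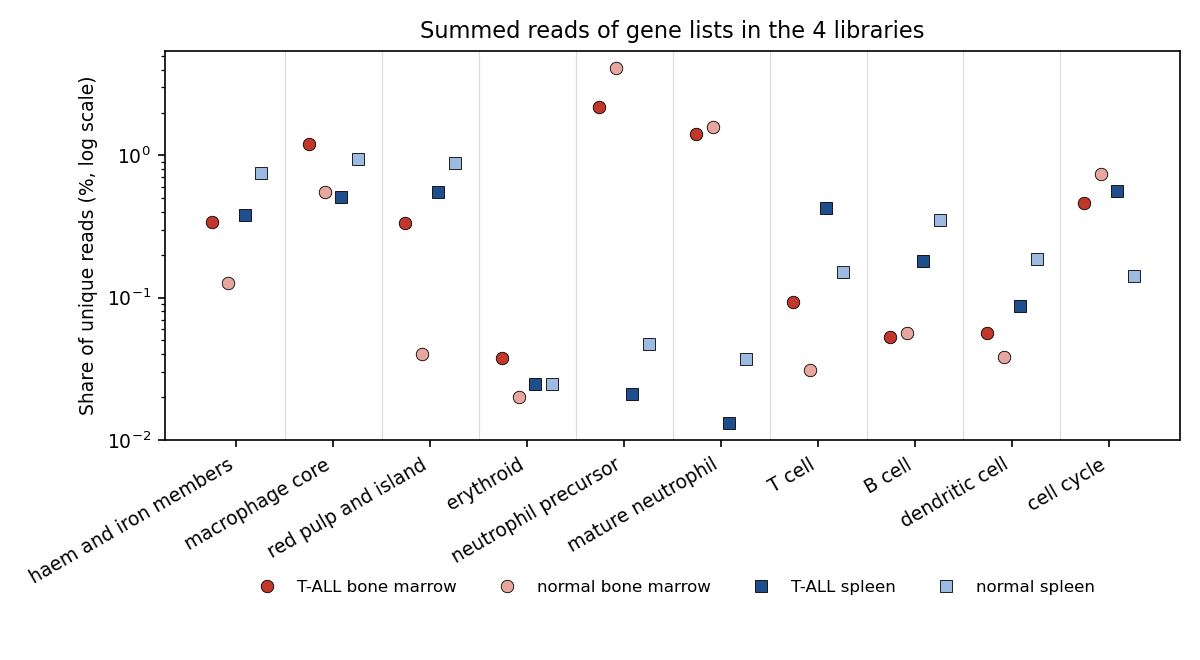
Share of uniquely mapped reads, in percent on a log axis, taken by the 10 genes and by lists of cell type genes, 1 point per library. The 10 genes take 0.341% of reads in T-ALL bone marrow against 0.126% in normal bone marrow and 0.380% in T-ALL spleen against 0.747% in normal spleen, and cell cycle genes are lowest in normal spleen at 0.141%.

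In the wider pathways, 5 of 53 genes that reached 10 CPM were higher and 1 was lower in T-ALL bone marrow. In T-ALL spleen 5 of 52 were higher and 3 lower. Over all genes measured, 8.01% were higher and 1.03% lower in T-ALL bone marrow, and 10.3% higher and 11.0% lower in T-ALL spleen. Of 9 further genes of haem uptake, transport and degradation, 7 reached 10 CPM in bone marrow, of which 2 were higher and 0 lower in the T-ALL library. These were Lrp1, a receptor for haem bound to haemopexin among many other ligands (9.93-fold, 9.14 to 10.8), and the haem-sensing repressor Bach1 (2.02-fold, 1.87 to 2.19). Hp (haptoglobin) was the most abundant per length, at 445 RPKM in T-ALL and 555 RPKM in normal bone marrow. In spleen 0 of 6 were higher or lower. The haem transporter gene Slc48a1 was at 43.3 RPKM in T-ALL and 79.3 RPKM in normal spleen. Hpx (haemopexin) was at 0 reads in both marrow libraries and in T-ALL spleen, and at 1 read in normal spleen.

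Iron transport and storage had 18 measured genes, of which 13 reached 10 CPM in each T-ALL comparison. In bone marrow 1 was higher, Ftl1 (2.50-fold, 2.44 to 2.56), and 0 were lower. In spleen 2 were higher in the T-ALL library, the ferroxidase gene Cp, ceruloplasmin (5.02-fold, 3.84 to 6.63), and the ferrireductase gene Steap3 (2.12-fold, 1.64 to 2.76). The lower ones were Lcn2 (3.43-fold, 2.78 to 4.26) and Ltf (3.41-fold, 2.95 to 3.95), which encode iron-binding proteins of neutrophil granules. In bone marrow Lcn2 was under 2-fold, at 2162 RPKM in T-ALL and 2800 RPKM in normal mice. Genes of iron regulation had 7 of 11 at 10 CPM. Hfe, which modulates the sensing of transferrin, was higher in T-ALL bone marrow (3.95-fold, 3.38 to 4.62) and under 2-fold in spleen, at 103 CPM in T-ALL against 199 CPM in normal spleen. Tfeb, a regulator of lysosomal genes, was the 1 lower gene of that list in T-ALL spleen (2.56-fold, 2.30 to 2.85).

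All 14 measured genes of haem synthesis reached 10 CPM. In T-ALL bone marrow 1 was higher and 1 lower, and these were the 2 forms of the first enzyme of the pathway. Alas2, the erythroid form, was 4.44-fold higher on 147 against 35 reads (3.06 to 6.62), while Alas1, the form of other tissues, was 3.11-fold lower (2.91 to 3.33). In spleen 0 of the 14 were higher or lower in the T-ALL library. Tspo, a mitochondrial membrane protein that binds porphyrins, was under 2-fold in both organs, at 141 RPKM in T-ALL against 178 RPKM in normal bone marrow and at 51.6 RPKM in T-ALL against 72.6 RPKM in normal spleen.

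Between the organs of normal mice the wider lists went both ways. Higher in normal spleen were Lrp1 (12.2-fold), Blvra (2.86-fold), Ftl1 (3.22-fold), Hfe (9.48-fold), Tfeb (3.34-fold), Tfe3, a relative of Tfeb (2.30-fold), Alas2 (3.21-fold) and the autophagy receptor gene Sqstm1 (2.12-fold). Among the lower genes, Hp (17.1-fold), Ltf (61.7-fold) and Lcn2 (55.2-fold) are genes of neutrophil granules, and with them went Tfr2 (10.04-fold), Alas1 (9.43-fold), Gsr, glutathione reductase (4.06-fold), Steap3 (3.74-fold) and G6pdx (3.29-fold). The haem exporter gene Abcg2, Abcb10, Tspo, Mafg and Txn1 were lower by 2.03-fold to 2.77-fold. In all, 8 of 52 genes that reached 10 CPM were higher and 13 lower in normal spleen, where 16.1% of all genes were higher and 14.0% lower. In T-ALL mice 2 of 55 were higher in spleen and 12 lower, where 5.44% of all genes were higher and 11.0% lower. The pair higher in T-ALL spleen was Maff (4.85-fold, 3.598 to 6.65) and Cp (4.11-fold, 3.23 to 5.28). Of the 12 lower genes, those of neutrophil granules had the largest folds: Ltf (182-fold, 160 to 207), Lcn2 (148-fold, 123 to 179) and Hp (24.0-fold, 21.1 to 27.5). Bach1, the repressor of Spic and Hmox1, was among the 12 with a smaller fold of 2.35 (2.16 to 2.56), at 84.6 CPM against 199 CPM. Within bone marrow, Bach1 was 2.02-fold higher in the T-ALL library than in the normal one, where Spic and Hmox1 were higher too. The part of Bach1 in the levels of Spic and Hmox1 was not tested.

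The genes whose profiles over the 4 libraries were most like those of the 10 were found by the Euclidean distance between centred log2(CPM + 1) values, among 5680 genes at 50 CPM or more in some library. With 4 points a short distance is easily reached, and the number of genes within 0.5 shows how common a profile is. Tfrc had 669 such genes, led by Fbl (distance 0.03), Gspt1 and Ccdc41, and Nfe2l2 had 736, led by Mapkapk2 (0.09), Sp3 and Diap1. Blvrb had 103, led by Map3k8, Pea15a and Sirpa, and Fth1 had 101, led by Sgpl1, Wdfy3 and Sh3glb1. The profiles of the other 6 genes were scarce, with 15 genes within 0.5 for Slc40a1, 14 for Trf, 13 for Slc11a1, 4 for Hmox1, 1 for Spic and 0 for Cd163.

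For Slc40a1 the nearest were H2-Aa (0.16), H2-Eb1 (0.21) and Cd74 (0.23), all genes of MHC class II antigen presentation, which dendritic cells and B cells express as well as macrophages. In spleen, dendritic cell genes took 0.0867% of reads in T-ALL against 0.186% in normal mice, and B cell genes 0.180% against 0.352%. In bone marrow, dendritic cell genes took 0.0564% in T-ALL against 0.0382% in normal mice, and B cell genes 0.0525% against 0.0564%. The part of these cells in this likeness was not tested. Trf was nearest to Slamf8 (0.11), Ms4a4c (0.33) and Plekhm3 (0.34), and Slc11a1 to Igf1 (0.16), Emr1 (0.23), the gene of a surface antigen that marks mouse macrophages, and Cd302 (0.29). Genes near Hmox1 were Kcnj10 (0.31) and Treml4 (0.43), and Spic was nearest to Ptprm (0.32), Sema6d (0.51) and Cd86 (0.56). Cd163 stood furthest from any gene, with S1pr5 (0.50), Ace (0.58) and Cd36 (0.77) the closest. Among the 10 genes themselves, the closest pairs were Blvrb and Fth1 (0.52), Slc40a1 and Trf (0.65), and Hmox1 and Slc11a1 (0.71).

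Promoter windows of 250 bases before to 50 bases after the start (RefSeq, GRCm38.p6) were found for 7 of the 10 genes, which leaves out Hmox1, Slc40a1 and Trf. These 7 genes have 10 windows. The core of the antioxidant response element, TGACNNNGC on either strand, occurred in 1 of the 10, in Nfe2l2. Over all genes it was in 12.4% of 32851 windows. The sequence GAGGAA, a core bound by PU.1 and related ETS factors, occurred in 1 of the 10, in Slc11a1, against 28.3% of all windows. The E-box CACGTG was in 0 of the 10, against 7.15%. A missing match says only that the letters are not in this window.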

How the data were processed

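RNA from sorted macrophages of 4 groups, T-ALL and normal bone marrow and T-ALL and normal spleen, was sequenced with 1 library each, and groups were taken from the sample titles. Per the file headers, each deposited table gives counts of uniquely mapped reads per gene, the gene length, the percent of that length covered by reads, the RPKM and an NCBI Gene ID and symbol. The deposited RPKM values divide the counts by length and by the library total in the header. Genes without a line were set to 0. Aligner, build, counting rule and strand setting: not given in the sources used here. Overlapping genes and genes with near-identical copies are uncertain. Multiply mapping reads are not in the counts.

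For CPM, totals were multiplied by TMM factors from edgeR 4.0.16 in R 4.3.3, which ran between 0.991 and 1.01. A call needed a 2-fold difference on log2(CPM + 1), a scale that understates changes of low genes, and a larger level of 10 CPM or above. Folds in the text are CPM ratios, and log2 folds use the pseudocount of 1. Their exact binomial 95% intervals, the exact intervals of levels and the Wilson intervals of shares cover counting error only, since PCR copies are not independent molecules. The size rule was tested on simulated counts with counting error only, which cannot show how it fares with variation between mice or sorts. The members and all gene lists were chosen with earlier results of these data known. The text names all 10 members, the pathway genes with the largest calls and highest RPKM, the highest gene of some cell lists and the 3 genes nearest in profile to each member. One gene that the rule would name is not reported here. Named outside that rule, after their values were seen, are Hmox2, Blvra, Slc11a2, Tfr2, Vcam1, Hpx and Ddx3y, and Abcg2, Abcb10, Mafg and Tfe3 complete counts. Other settings tried: total-count scaling, scaling by DESeq2 1.42.0 median-of-ratios factors, TMM without genes of other cells, pseudocounts of 0.1 and 5, no minimum or 50 CPM, the deposited RPKM, and folds set against the macrophage core median. The remaining steps ran in Python 3.11.15 with scipy 1.17.1, numpy 2.4.6, pandas 2.3.3 and matplotlib 3.10.9. Elements and motifs were read from GENCODE M21 and RefSeq tables.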

Additional observations from a re-analysis of the deposited data

Results flagged for a closer look

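Of the 10 genes, 4 passed 2-fold in both organs with opposite directions between T-ALL and normal libraries, and the difference between organs was not tested, since each group has 1 library. Cd163 had a log2 fold of 3.04 in bone marrow and -2.75 in spleen. Hmox1 had log2 folds of 3.18 in bone marrow and -1.40 in spleen. For Slc40a1 the values were 1.63 in bone marrow and -1.67 in spleen, and for Trf 1.96 in bone marrow and -1.75 in spleen. Between organs, Cd163 was the only one of the 10 genes to pass 2-fold in opposite directions, with a log2 fold of spleen over bone marrow of -1.77 in T-ALL mice and 4.02 in normal mice, also untested. Macrophage core genes had medians of 2.42 in bone marrow and -1.02 in spleen in the same comparisons.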

How the results depend on the processing

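All 8 counts of members called higher or lower stayed within 1.5 times under total-count, median-of-ratios and alternative TMM scaling, pseudocounts of 0.1 and 5, no minimum, a minimum of 50 CPM and the deposited RPKM, and of the members' calls only that of Spic in bone marrow was lost, at 50 CPM. Setting log2 folds against the macrophage core median changed more. In T-ALL against normal bone marrow 0 members were then higher and 4 lower, and the log2 folds turned negative for Nfe2l2 (-2.24), Blvrb (-1.15), Fth1 (-1.19), Slc40a1 (-0.79) and Trf (-0.46). In T-ALL against normal spleen 1 member was lower and Tfrc stayed higher, while Hmox1, Slc40a1 and Trf fell under the size limit. The log2 folds in spleen turned positive for Spic (0.63), Nfe2l2 (0.81), Blvrb (0.28), Slc11a1 (0.44) and Fth1 (0.74). Of all genes, 26 of 9716 were then higher and 9223 lower in bone marrow, and 4593 of 9774 higher and 123 lower in spleen. In spleen against bone marrow, 2 members were higher and 1 lower in T-ALL mice, where 1317 of 9852 genes were higher and 755 lower. In normal mice 5 members were higher and 3 lower, where 196 of 10072 genes were higher and 9053 lower. Log2 folds there turned negative for Blvrb (-0.38) and Fth1 (-1.04). The cause was not tested. That list holds genes that also vary between macrophages and neutrophils, so its median is no measure of macrophage content. No paired analysis was possible because each group has 1 library, and for the same reason no library could be left out. Depth limits Spic in normal bone marrow most, with 43 reads.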
